A study of Homo sapiens with 3 samples.

Results

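The 45 genes described here are the cyclins, the cyclin-dependent kinases (CDKs), the CDK inhibitors and the small CDK-binding proteins CKS1B and CKS2. They were taken by symbol from the 35851 genes of the deposited expression table, and all 45 were found. A mean of at least 1 RPKM (read number divided by exonic length and by the library's assigned reads) over the 3 libraries was reached by 41 of the 45 and by 13274 genes in all, and these entered the test. The study measured poly(A) RNA of 5637 cells, a human bladder cancer line of epithelial origin, after transfection of short interfering RNA with Lipofectamine 3000. Control cells received a control siRNA and gave 1 library (siNC). MYBL2 was targeted by siRNA in the cells of the other 2 libraries (siMYBL2-1, siMYBL2-2). The cells of all 3 libraries were labelled wild type and had the same growth medium, and the question was which genes lie downstream of MYBL2 in bladder cancer. The labels do not say whether siMYBL2-1 and siMYBL2-2 are different siRNA sequences, nor whether cultures were separate, so p-values here reflect only how far these samples scatter, and that scatter may be technical.

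Cyclins are regulatory subunits that switch on CDKs, and their levels rise and are destroyed at set points of the cell cycle. D-type cyclins with CDK4 or CDK6 and E-type cyclins with CDK2 act in G1 and at the entry into S phase, chiefly by phosphorylating the retinoblastoma protein, whereas cyclin A and cyclin B with CDK1 or CDK2 act from S phase to mitosis. A further set of cyclins and CDKs phosphorylates RNA polymerase II and takes part in transcription and splicing. The INK4 inhibitors block CDK4 and CDK6, and the CIP/KIP inhibitors bind a wider range of cyclin-CDK complexes. MYBL2 (B-MYB) is a transcription factor that joins the MuvB complex at the promoters of genes expressed in G2 and mitosis, where MuvB contacts a short element called the cell cycle homology region (CHR).

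The siNC library held 40259436 assigned reads, the siMYBL2-1 library 41818861 and the siMYBL2-2 library 46177658. On a transcript of 1 kilobase 3 reads correspond to 0.0745, 0.0717 and 0.0650 RPKM. MYBL2 itself stood at 211 RPKM in siNC, 46.0 in siMYBL2-1 and 56.3 in siMYBL2-2 (limma adjusted p 0.153, and 0.00811 to 0.993 over the alternatives, with the lowest from limma-voom). The share of mitochondrial reads was 7.25%, 7.24% and 6.04%. All 9 epithelial markers were expressed, with summed levels of 3048, 3041 and 2462 RPKM. Single markers differed more than their sum, with KRT13 at 165, 24 and 75.7 RPKM, KRT18 at 124, 298 and 172 RPKM, EPCAM at 102, 177 and 71.8 RPKM and CDH1 at 14.8, 36.2 and 8.98 RPKM. Their part in the results was not tested. The 7 markers of immune, endothelial and stromal cells summed to 4.95, 7.42 and 5.39 RPKM, and only CD68 and COL1A1 among them reached 1 RPKM in any library. PTPRC had no reads in siNC and siMYBL2-1, and CD3E and COL3A1 had none in either siMYBL2 library. Where 3 values of a gene are listed, they are those of siNC, then siMYBL2-1, then siMYBL2-2. Each ratio between libraries has a 95% interval from the exact conditional binomial distribution of the recovered reads, which covers counting error only.

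None of the 41 tested members passed limma's test at an adjusted p of 0.05, and their adjusted p-values ran from 0.450 to 1.00. Over all genes that test called 1 gene, 0.00753% of those tested. The test has 1 residual degree of freedom, and siNC, with a single library, is taken to vary as the siMYBL2 pair does. limma also draws each gene's variance toward the trend over all genes, for 10.16 degrees of freedom in total. Its standard errors therefore do not show the scatter of a single gene alone. At an unadjusted limma p under 0.05 there were 6 members, CCND1, CDK1, CDK6, CDKN2C, CDKN2D and CDKN3, against 4.71% of all genes. The limma-voom fit on the recovered reads also called 0 members, beside 0.0753% of all genes, and 8 members (19.5%) had an unadjusted p under 0.05, beside 4.74% of all genes.

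By size alone, 12 of the 41 members (29.3%) were at least 1.5-fold lower in siMYBL2-1 than in siNC, where 15.0% of all genes were. In siMYBL2-2 it was 10 members (24.4%), beside 8.63% of all genes. Members at least 1.5-fold higher numbered 3 in siMYBL2-1 (7.32%), beside 11.2% of all genes, and 3 in siMYBL2-2, beside 4.90%. In both siMYBL2 libraries CDK1, CDKN3, CCNG2, CDKN2C and CDKN2D were at least 1.5-fold lower, which is 12.2% of the members and 4.11% of all genes. CCND1 and CDK6 were at least 1.5-fold higher in both, 4.88% of the members and 2.64% of all genes. Both comparisons use the same siNC library and are therefore not independent, and no test stands behind these counts. In bulk RNA, fewer cells in a given phase of the cycle and less RNA per cell cannot be told apart.

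**Figure D1:**
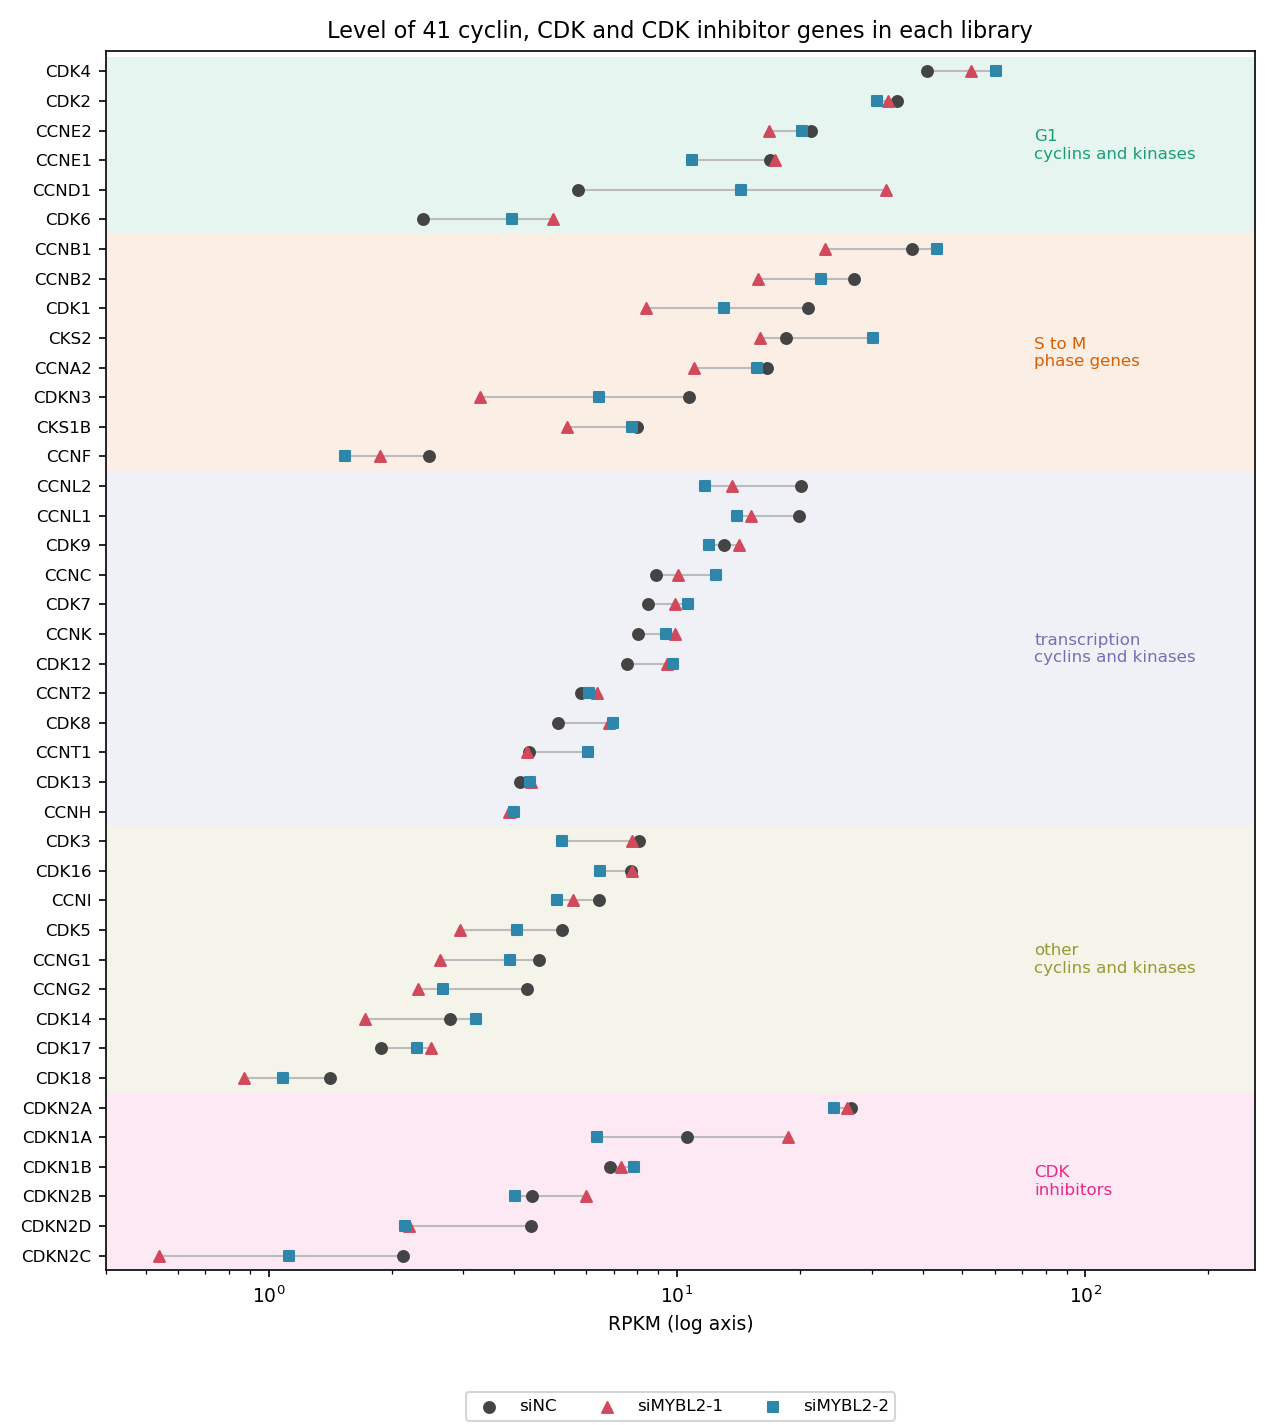
Level of the 41 tested members in each library, in RPKM on a log axis, grouped by role and ordered by the level in siNC, with 1 point per library (circle siNC, triangle siMYBL2-1, square siMYBL2-2). CCND1 and CDK6 have siNC at the left of both siMYBL2 points, CDK1, CDKN3, CCNG2, CDKN2C and CDKN2D have it at the right, and CCNB1, CKS2, CDK14 and CDKN1A, among others, have it between them.

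Among the G1 genes the D-type cyclin CCND1 and the kinase CDK6, which can form one complex, were higher in both siMYBL2 libraries, while the E-type cyclins and CDK2 were not. CCND1 (chr11:69641087-69654474, plus strand, hg38) stood at 5.73 RPKM in siNC, 32.5 in siMYBL2-1 and 14.4 in siMYBL2-2, from 1114, 6570 and 3202 reads. Both siMYBL2 values lay above the siNC value, and they were themselves 2.27-fold apart (interval 2.17 to 2.36). The ratio to siNC was 5.68 (5.33 to 6.06) in siMYBL2-1 and 2.51 (2.34 to 2.69) in siMYBL2-2. The mean of the siMYBL2 pair was 23.4 ± 12.8 RPKM (SD, n = 2), and the limma log2 change was 1.75 with a standard error of 0.42 and an adjusted p of 0.450 (0.197 to 1.00 over the alternatives). Of the exonic bases of CCND1, 89.7% are shared with no other gene of the table.

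CDK6 (chr7:92604921-92836594, minus strand) stood at 2.38 RPKM in siNC, 4.96 in siMYBL2-1 and 3.95 in siMYBL2-2. The siMYBL2 values were closer to each other than for CCND1, at a ratio of 1.25 (1.18 to 1.33). They exceeded siNC 2.08-fold (1.94 to 2.23) and 1.66-fold (1.55 to 1.78), with a mean of 4.46 ± 0.712 RPKM (SD, n = 2) and a limma log2 change of 0.68 with a standard error of 0.29 and an adjusted p of 0.998 (0.736 to 1.00 over the alternatives). CDK4, the close relative of CDK6 and the more abundant of the pair, stood at 41, 52.6 and 60.3 RPKM. That is 1.28-fold (1.24 to 1.33) and 1.47-fold (1.42 to 1.52) above siNC, with the order of the siMYBL2 libraries opposite to that of CDK6. CDK4 shares all but 56.8% of its exonic bases with TSPAN31, and the sources used here do not say whether reads were counted by strand.

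The other D-type cyclins were low. CCND2 had 4, 8 and 20 reads (0.0139, 0.0267 and 0.0605 RPKM), and CCND3 stood at 0.788, 0.725 and 1.10 RPKM. CCND1 thus held 87.7%, 97.7% and 92.5% of the D-type cyclin RPKM in the 3 libraries. CCNE1, the activator of CDK2 at S phase entry, stood at 16.9 RPKM in siNC and 17.4 in siMYBL2-1 but 10.9 in siMYBL2-2, 1.55-fold below siNC (1.44 to 1.67). CCNE2, which shares exonic bases with INTS8 (62.9% are its own), stood at 21.3, 16.8 and 20.3 RPKM and CDK2 at 34.7, 32.8 and 30.9 RPKM. The median log2 ratio to siNC, on RPKM + 1, over the 6 tested G1 genes was 0.19 in siMYBL2-1 and 0.24 in siMYBL2-2, beside -0.04 and -0.01 over all genes.

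**Figure D2:**
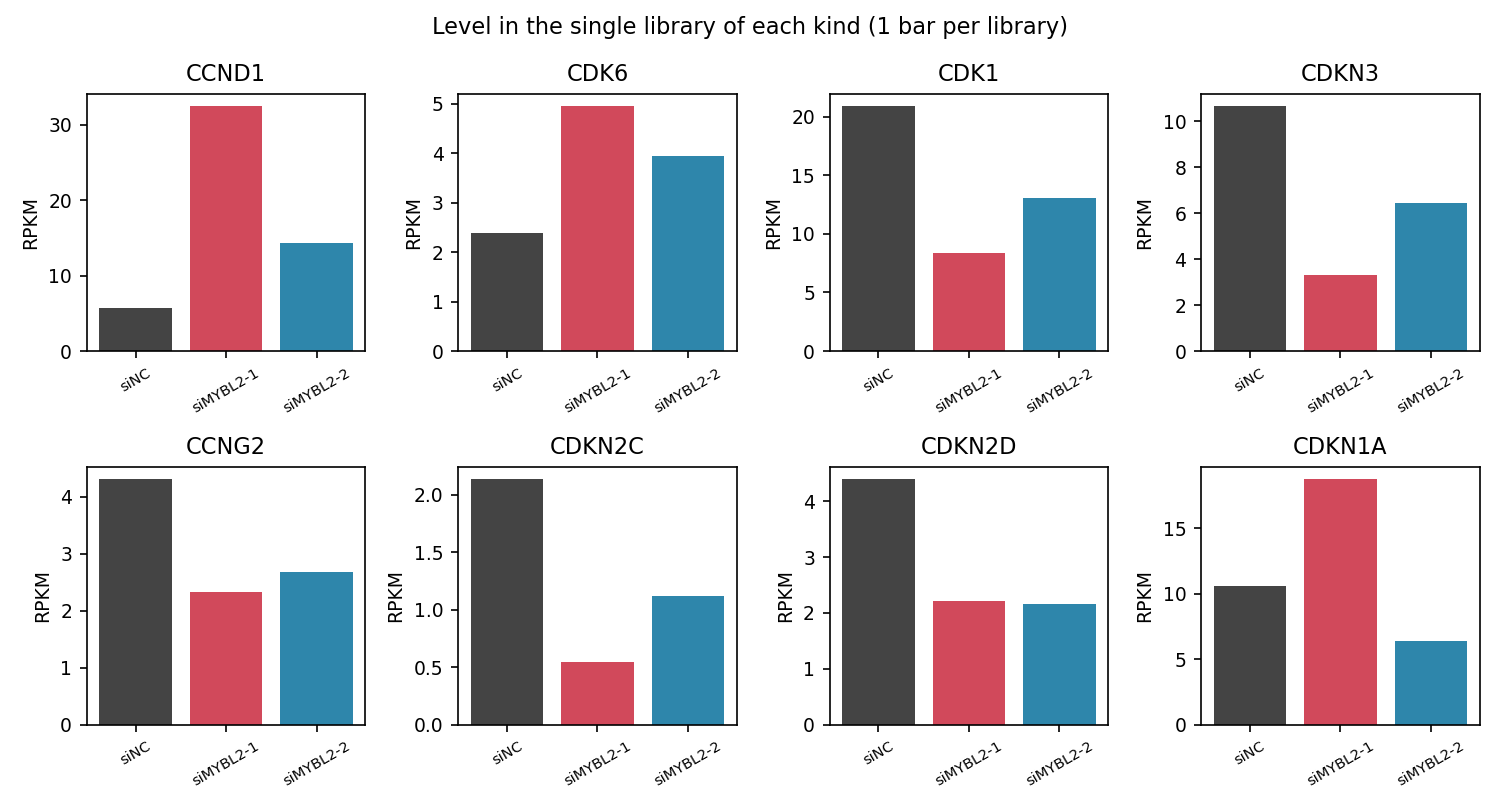
Level in RPKM, on linear axes from 0, of the 7 members at least 1.5-fold from siNC in the same direction in both siMYBL2 libraries, and of CDKN1A, with 1 bar per library and no error bars because each bar is 1 library. CCND1 and CDK6 are above siNC in both, the next 5 genes are below siNC in both, and CDKN1A is above siNC in siMYBL2-1 and below it in siMYBL2-2.

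The S to M phase genes were lower in siMYBL2-1 throughout, and CDK1, CDKN3 and CCNF were also lower by at least 1.5-fold in siMYBL2-2. Of the 8 tested, 8 were below siNC in siMYBL2-1, as were 7262 of all 13274 genes tested. By at least 1.5-fold 5 of the 8 were lower there (CCNA2, CCNB1, CCNB2, CDK1 and CDKN3), beside 15.0% of all genes. In siMYBL2-2 6 were below siNC, as were 6907 of all genes, and 3 by at least 1.5-fold, beside 8.63% of all genes. The log2 ratios of the 8 genes to siNC had a median of -0.62 (siMYBL2-1) and -0.17 (siMYBL2-2), beside -0.04 and -0.01 over all genes. The summed level of the class was 142.1 RPKM in siNC, 84.79 in siMYBL2-1 and 140.6 in siMYBL2-2, so by that sum siMYBL2-2 lay close to siNC.

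CDK1 (chr10:60778331-60794852, plus strand), the kinase that drives entry into mitosis, stood at 20.9 RPKM in siNC, 8.40 in siMYBL2-1 and 13.1 in siMYBL2-2, from 3313, 1381 and 2371 reads. Both siMYBL2 values lay below siNC, and siMYBL2-1 was 1.55-fold below siMYBL2-2 (1.45 to 1.66). Relative to siNC they were 2.49-fold (2.34 to 2.66) and 1.60-fold (1.52 to 1.69) lower. The siMYBL2 mean was 10.7 ± 3.30 RPKM (SD, n = 2), and the limma log2 change was -0.93 with a standard error of 0.33 and an adjusted p of 0.855 (0.764 to 1.00 over the alternatives). CDKN3 (chr14:54396849-54420218, plus strand), a phosphatase that removes an activating phosphate from CDKs, stood at 10.7 RPKM in siNC, 3.30 in siMYBL2-1 and 6.45 in siMYBL2-2. Its order over the libraries was that of CDK1. It was 3.24-fold (2.81 to 3.75) and 1.65-fold (1.48 to 1.85) lower than siNC, with a siMYBL2 mean of 4.87 ± 2.23 RPKM (SD, n = 2) and a limma log2 change of -1.05 with a standard error of 0.36 and an adjusted p of 0.815 (0.791 to 1.00 over the alternatives).

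Of the B-type cyclins, partners of CDK1, CCNB2 had the order of CDK1 over the libraries and CCNB1 did not. CCNB1 stood at 37.7 RPKM in siNC, 23.1 in siMYBL2-1 and 43.4 in siMYBL2-2. It was 1.63-fold lower than siNC in siMYBL2-1 (1.55 to 1.72) and 1.15-fold higher in siMYBL2-2 (1.10 to 1.20), so siNC lay between the siMYBL2 libraries. CCNB2 stood at 27.2, 15.8 and 22.5 RPKM, which is 1.73-fold (1.63 to 1.83) and 1.21-fold (1.15 to 1.27) below siNC. CCNA2, the cyclin of S phase and G2, stood at 16.7, 11.0 and 15.7 RPKM, with siMYBL2-2 1.06-fold below siNC (interval of the fold 0.994 to 1.13). CCNF, an F-box protein that marks other proteins for degradation and binds no known CDK, was low at 2.47, 1.88 and 1.54 RPKM, 1.61-fold below siNC in siMYBL2-2 (1.42 to 1.82).

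CKS1B and CKS2, small proteins that dock phosphorylated substrates onto CDKs, also differed from each other. CKS1B stood at 7.97, 5.38 and 7.76 RPKM. CKS2 stood at 18.5, 16.0 and 30.2 RPKM, and was 1.63-fold above siNC in siMYBL2-2 (1.45 to 1.83) and 1.16-fold below it in siMYBL2-1 (1.01 to 1.33). CCNA1, the germline A-type cyclin, had 1, 0 and 4 reads, where 3 reads correspond to 0.0310, 0.0299 and 0.0271 RPKM, and no fold is given.

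Promoters were compared because MuvB, the partner complex of MYBL2, contacts the CHR, and CHR promoters often also hold CCAAT boxes bound by NF-Y. The 250 bases before each transcription start listed by RefSeq (GRCh38.p14) were searched on both strands for the CHR core (TTTGAA or TTTAAA, the second reading the same on both strands), for the NF-Y box CCAAT and for the MYB core AACNG. The MYB core can overlap the other motifs and was counted separately. Windows were found for 40 of the 45 members, not for CCND1, CCND2, CCNE2, CDK2 and CDKN1C. Among the 9 S to M phase genes a CHR core was present in 7 and an NF-Y box in 8, and the same 7 genes held both in one window (77.8%). Of the 27305 genes with a RefSeq promoter, 25.5% had a CHR core, 37.0% an NF-Y box and 9.29% both. The MYB core, a short motif, was in 9 of the 9 and in 74.6% of all genes. It was also in 4 of 4 G1 genes, 6 of 12 transcription genes, 8 of 9 other cyclins and kinases and 6 of 6 inhibitors. Both CHR and NF-Y box were in 0 of 4 G1 genes, 1 of 12 transcription genes (CCNC), 0 of 9 other cyclins and kinases and 1 of 6 inhibitors (CDKN1B). A CHR core, with or without an NF-Y box, was in 1 of 4 G1 genes (CCNE1) and 3 of 12 transcription genes. It was in 1 of 9 other cyclins and kinases (CCNG2) and 1 of 6 inhibitors.

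The sequences below show the windows of CDK1 and CDKN3, which were lower in both siMYBL2 libraries, of CCNB1, CCNB2 and CKS2, whose direction or size differed between them, and of CDK6, which was higher in both. They are written 5′ to 3′ on the strand of the gene, up to the base before the start. Capitals mark the CHR core and the NF-Y box in either orientation.
CDK1, chr10:60778081-60778330, plus strand: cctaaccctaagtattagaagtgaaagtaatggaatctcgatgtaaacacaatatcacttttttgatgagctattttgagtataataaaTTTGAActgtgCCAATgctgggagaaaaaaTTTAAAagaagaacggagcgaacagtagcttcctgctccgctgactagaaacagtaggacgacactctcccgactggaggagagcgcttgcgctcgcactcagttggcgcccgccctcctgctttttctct
CDKN3, chr14:54396757-54397006, plus strand: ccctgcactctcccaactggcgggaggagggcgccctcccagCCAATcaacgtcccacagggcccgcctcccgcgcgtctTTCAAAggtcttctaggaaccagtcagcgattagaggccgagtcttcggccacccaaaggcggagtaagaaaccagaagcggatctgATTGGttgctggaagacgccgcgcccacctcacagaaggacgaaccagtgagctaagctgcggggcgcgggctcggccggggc
CCNB1, chr5:69166900-69167149, plus strand: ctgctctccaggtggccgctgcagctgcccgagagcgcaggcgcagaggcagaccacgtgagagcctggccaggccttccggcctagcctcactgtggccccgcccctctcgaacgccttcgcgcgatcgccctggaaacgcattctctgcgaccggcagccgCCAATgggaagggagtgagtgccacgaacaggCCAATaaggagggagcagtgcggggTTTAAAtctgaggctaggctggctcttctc
CCNB2, chr15:59104896-59105145, plus strand: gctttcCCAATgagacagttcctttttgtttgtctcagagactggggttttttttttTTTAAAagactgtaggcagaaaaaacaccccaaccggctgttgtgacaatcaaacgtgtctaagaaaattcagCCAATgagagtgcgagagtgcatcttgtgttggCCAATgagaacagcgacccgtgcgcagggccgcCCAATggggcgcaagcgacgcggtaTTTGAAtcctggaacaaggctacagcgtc
CKS2, chr9:89310945-89311194, plus strand: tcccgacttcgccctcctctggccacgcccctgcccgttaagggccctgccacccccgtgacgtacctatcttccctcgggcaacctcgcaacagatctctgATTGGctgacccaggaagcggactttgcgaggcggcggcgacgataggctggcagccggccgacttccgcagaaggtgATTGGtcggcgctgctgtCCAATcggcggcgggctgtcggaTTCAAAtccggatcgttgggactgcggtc
CDK6, chr7:92836574-92836823, minus strand: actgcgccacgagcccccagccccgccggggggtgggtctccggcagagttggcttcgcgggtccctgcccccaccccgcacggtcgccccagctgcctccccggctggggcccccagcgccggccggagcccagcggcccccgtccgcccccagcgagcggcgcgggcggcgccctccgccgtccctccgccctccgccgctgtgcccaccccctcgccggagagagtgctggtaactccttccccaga
For CDK1 and CDK6 the first of 2 listed starts is shown. The deposited gene models of CDKN3, CCNB1, CCNB2 and CDK6 begin inside these windows, 158, 140, 68 and 21 bases before the RefSeq start.

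CCNB1, CCNB2, CKS1B and CKS2 had nearly the same layout of motifs. In CCNB1 the CHR core nearest the start began 30 bases before it, and an NF-Y box began 25 bases further upstream. In CCNB2 the CHR core began 29 bases before the start with an NF-Y box 25 bases upstream of it, in CKS1B 30 bases before with a box 24 upstream, and in CKS2 29 bases before with a box 23 upstream. The CHR match of CKS2 is on the minus strand, and those of CCNB1, CCNB2 and CKS1B are on the plus strand. The layout was not confined to these genes. The inhibitor CDKN1B had a CHR core at -30 and an NF-Y box at -50 from its start. It was 1.06-fold (0.962 to 1.17) and 1.14-fold (1.04 to 1.25) above siNC. CCNF had its CHR core 85 bases before the start with a box 21 upstream. Relative to siNC, CCNB1, CCNB2, CKS1B and CKS2 were all lower in siMYBL2-1. In siMYBL2-2 CCNB1 and CKS2 were higher, CCNB2 was lower, and CKS1B was 1.03-fold lower with an interval of 0.929 to 1.13. CDKN3 has its CHR core 170 bases before the start, while CDK1 has its nearest one 131 bases before the first start and another 13 bases before the second. The printed CDK6 window holds none of the motifs, while that of its second start holds a MYB core at -7 but no CHR core or NF-Y box. A match of letters is a description and not a binding site, and binding was not measured.

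**Figure D3:**
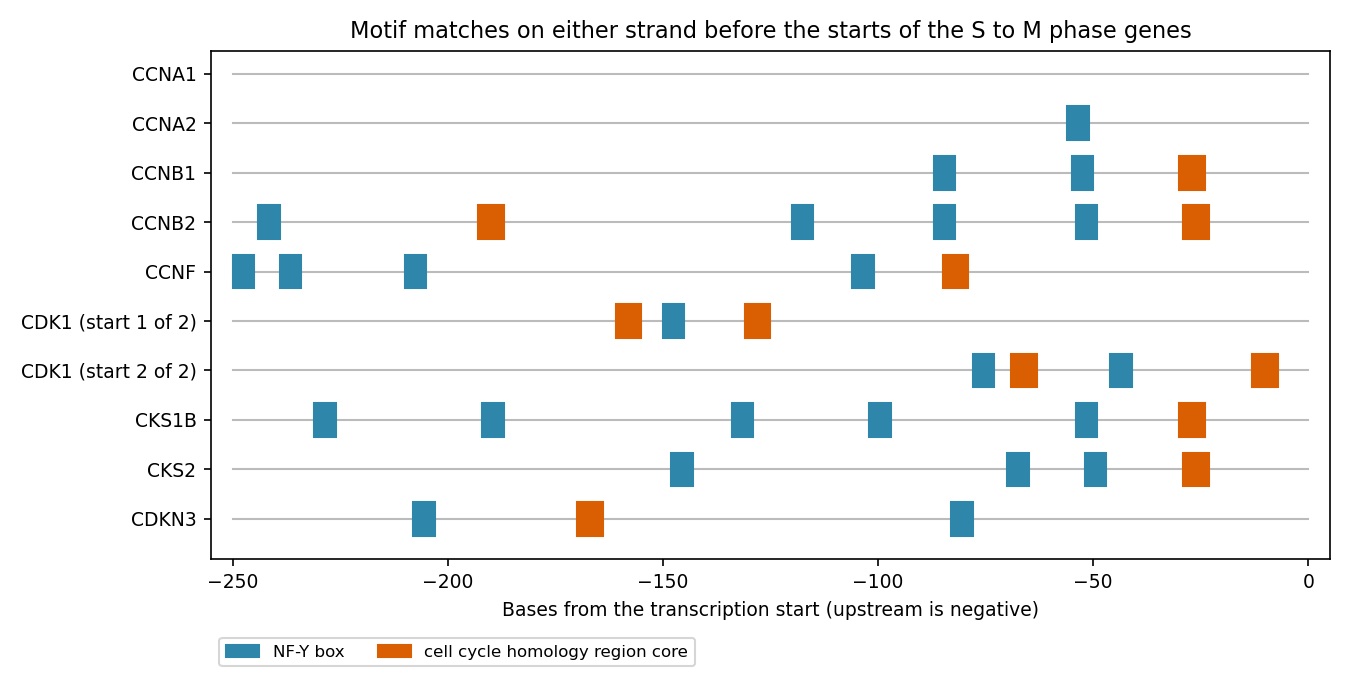
Positions of the CHR core (orange) and the NF-Y box (blue), on either strand, in the 250 bases before the RefSeq starts of the 9 S to M phase genes, with the distance from the start in bases on the horizontal axis and 1 line per start. CCNB1, CCNB2, CKS1B and CKS2 have a CHR core beginning 29 or 30 bases before the start with an NF-Y box 23 to 25 bases upstream of it, and CCNA1 has neither motif.

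The CDK inhibitors had no common direction. Of the 6 tested, 3 were lower than siNC in siMYBL2-1 and 5 in siMYBL2-2, with median log2 ratios of 0.02 and -0.35. Over all 13274 genes 7262 and 6907 were lower, with medians of -0.04 and -0.01. CDKN2C (chr1:50960745-50974633, plus strand), the INK4 inhibitor p18, stood at 2.13 RPKM in siNC, 0.541 in siMYBL2-1 and 1.12 in siMYBL2-2, from 285, 75 and 172 reads. Both siMYBL2 values lay below siNC and were 2.08-fold apart (1.57 to 2.76). They were 3.95-fold (3.05 to 5.16) and 1.9-fold (1.57 to 2.31) below siNC, with a mean of 0.832 ± 0.412 RPKM (SD, n = 2) and a limma log2 change of -0.79 with a standard error of 0.30 and an adjusted p of 0.934 (0.769 to 1.00 over the alternatives).

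CDKN2D (chr19:10566462-10569059, minus strand), the INK4 inhibitor p19, stood at 4.40 RPKM in siNC, 2.21 in siMYBL2-1 and 2.16 in siMYBL2-2. The siMYBL2 values agreed within counting error, at a ratio of 1.02 (0.806 to 1.3), and both lay below siNC, 1.99-fold (1.61 to 2.46) and 2.03-fold (1.66 to 2.50). Their mean was 2.19 ± 0.0355 RPKM (SD, n = 2), and the limma log2 change was -0.76 with a standard error of 0.28 and an adjusted p of 0.920 (0.590 to 1.00 over the alternatives). CDKN2A, which encodes the INK4 inhibitor p16 and, from another reading frame, ARF, was the most abundant inhibitor at 26.7, 26.0 and 24.2 RPKM, and a table by gene does not separate its transcripts. CDKN2B, the INK4 inhibitor p15, stood at 4.43, 5.98 and 4.0 RPKM.

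CDKN1A, the CIP/KIP inhibitor p21 and a classical target of p53, differed in opposite directions. It stood at 10.6 RPKM in siNC, 18.7 in siMYBL2-1 and 6.38 in siMYBL2-2, so siNC lay between the siMYBL2 libraries. It was 1.77-fold higher than siNC in siMYBL2-1 (1.66 to 1.9) and 1.66-fold lower in siMYBL2-2 (1.52 to 1.81), and the siMYBL2 libraries were 2.94-fold apart (2.72 to 3.18). The limma log2 change was 0.06 with a standard error of 0.48 (adjusted p 0.999). CDKN1B, the CIP/KIP inhibitor p27, stood at 6.87, 7.30 and 7.84 RPKM, and CDKN1C, p57, had 8, 12 and 24 reads (0.0768, 0.111 and 0.201 RPKM).

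Of the 12 transcription cyclins and kinases 1 was past 1.5-fold from siNC, CCNL2, which was lower in siMYBL2-2. Over all genes 8.63% were at least 1.5-fold lower in that library. In siMYBL2-1 8 of the 12 were above siNC and in siMYBL2-2 9 were, with median log2 ratios of 0.11 and 0.13. Over all 13274 genes 6012 were above siNC in siMYBL2-1 and 6366 in siMYBL2-2, with medians of -0.04 and -0.01. The splicing-associated L-type cyclins were below siNC in both. CCNL1 stood at 19.9, 15.1 and 14.1 RPKM, 1.32-fold (1.27 to 1.36) and 1.42-fold (1.37 to 1.47) lower. CCNL2 stood at 20.2, 13.7 and 11.7 RPKM, 1.47-fold (1.41 to 1.54) and 1.72-fold (1.65 to 1.79) lower. Their siMYBL2 values lay closer to each other than to siNC.

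CDK8 and CDK12 lay above siNC in both siMYBL2 libraries, while CDK9 lay above it in siMYBL2-1 and below it in siMYBL2-2. CDK8, the Mediator kinase, stood at 5.12, 6.83 and 6.98 RPKM, and its cyclin CCNC stood at 8.89, 10.1 and 12.4 RPKM. CDK12, which phosphorylates elongating RNA polymerase II with cyclin K, stood at 7.55, 9.44 and 9.79 RPKM, and its relative CDK13 stood at 4.12, 4.40 and 4.35 RPKM. CCNK stood at 8.04, 9.92 and 9.39 RPKM, with 40.5% of its exonic bases not shared with another gene. Of the subunits of the CDK-activating kinase and TFIIH, CDK7 stood at 8.51, 9.90 and 10.7 RPKM and CCNH at 3.97, 3.89 and 3.98 RPKM. CDK9, the kinase of P-TEFb, which releases paused polymerase, stood at 13.1, 14.2 and 12 RPKM, and its cyclins CCNT1 and CCNT2 at 4.34, 4.29 and 6.07 RPKM and at 5.82, 6.39 and 6.07 RPKM.

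Of the 9 other cyclins and kinases, 7 were below siNC in each siMYBL2 library, with median log2 ratios of -0.37 and -0.23. Over all 13274 genes 7262 were below siNC in siMYBL2-1 and 6907 in siMYBL2-2, with medians of -0.04 and -0.01. CCNG2 (chr4:77157151-77433388, plus strand), an atypical cyclin that is induced in cells leaving the cycle, stood at 4.30 RPKM in siNC, 2.32 in siMYBL2-1 and 2.67 in siMYBL2-2. Both siMYBL2 values lay below siNC and were near each other. They were 1.85-fold (1.69 to 2.03) and 1.61-fold (1.48 to 1.75) lower, with a mean of 2.50 ± 0.25 RPKM (SD, n = 2) and a limma log2 change of -0.60 with a standard error of 0.28 and an adjusted p of 0.999 (0.697 to 1.00 over the alternatives).

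CCNG1, a p53 target, stood at 4.61, 2.63 and 3.91 RPKM, 1.75-fold (1.53 to 2.01) and 1.18-fold (1.05 to 1.33) below siNC. Both siMYBL2 values of CCNI, an atypical cyclin, also lay below siNC. It stood at 6.45, 5.56 and 5.09 RPKM. CDK5, known for its part in neurons, stood at 5.24, 2.94 and 4.07 RPKM, 1.78-fold (1.56 to 2.04) and 1.29-fold (1.15 to 1.45) below siNC. CDK14, a kinase that pairs with cyclin Y at the membrane, had siNC between the siMYBL2 libraries, at 2.78, 1.72 and 3.21 RPKM. Its relatives stood at 7.73, 7.78 and 6.46 RPKM (CDK16), 1.89, 2.50 and 2.32 RPKM (CDK17) and 1.41, 0.872 and 1.09 RPKM (CDK18). CDK3 stood at 8.07, 7.76 and 5.22 RPKM, but only 8.82% of its exonic bases are its own, the rest lying in the readthrough gene TEN1-CDK3, and its values are uncertain.

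**Figure D4:**
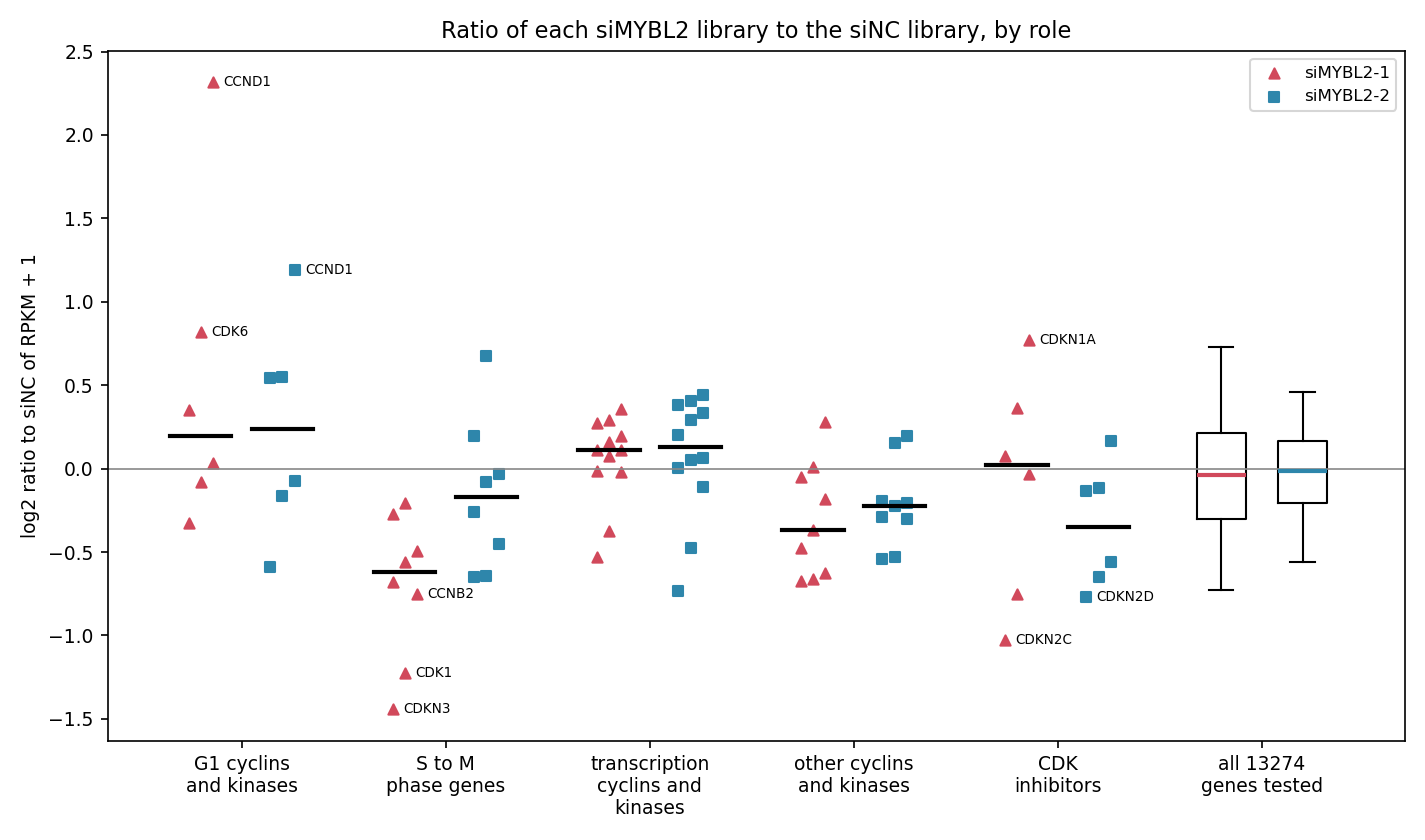
Log2 ratio to siNC of RPKM + 1 for each tested member, by role, in siMYBL2-1 (triangles) and siMYBL2-2 (squares), with a black bar at each class median and members beyond 0.75 in either direction named. The boxes at the right give the median, quartiles and 5th to 95th percentiles of all 13274 genes. The S to M phase medians are -0.62 and -0.17 and the G1 medians 0.19 and 0.24.

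The siMYBL2 libraries also differed from each other. In siMYBL2-1 6 members (14.6%) were at least 1.5-fold below siMYBL2-2, beside 11.5% of all genes, and these were CCNB1, CDK1, CDK14, CDKN2C, CDKN3 and CKS2. CCND1, CCNE1 and CDKN1A (7.32% of the members) were at least 1.5-fold above siMYBL2-2, beside 10.6% of all genes. Of the first 6, CCNB1, CDK1, CDKN3 and CKS2 are S to M phase genes. Over that class the log2 ratio of siMYBL2-1 to siMYBL2-2 had a median of -0.53, beside -0.02 over all genes. CCNB1 was 1.88-fold lower in siMYBL2-1 than in siMYBL2-2 (1.79 to 1.97) and CKS2 1.89-fold lower (1.68 to 2.14). The level of MYBL2 itself was 46.0 and 56.3 RPKM in these libraries, and whether it bears on the gap was not tested.

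The neighbouring genes of the pathway gave no call either. Of 19 further cyclins, CDKs and their binding proteins 14 were tested, and of 35 regulators and substrates of cyclin-CDK complexes 33 were. limma called 0 in both lists, beside 0.00753% of all genes, with smallest adjusted p-values of 0.999 and 0.964. An unadjusted limma p under 0.05 was reached by 0 and 1, beside 4.71% of all genes. None of the tested genes was at least 1.5-fold from siNC in the same direction in both siMYBL2 libraries. Over all genes 4.11% were lower in both by that fold and 2.64% were higher in both. Below the filter, CCNI2 had 4, 18 and 19 reads and CCNO 6, 19 and 16. The medians of the log2 ratios were -0.16 and -0.01 for the first list, in siMYBL2-1 and siMYBL2-2, and 0.03 and 0.07 for the second. Genes of these lists that are named here with values were chosen after their values were seen.

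The CDC25 phosphatases, which activate CDKs by removing inhibitory phosphates, went different ways. CDC25B, the gene with the unadjusted p under 0.05, stood at 24.3, 11.5 and 16.6 RPKM. CDC25C stood at 4.46, 1.80 and 3.23 RPKM. CDC25A, which acts earlier in the cycle, stood at 4.86, 9.56 and 6.75 RPKM. CDC25B and CDC25C thus lay below siNC in both siMYBL2 libraries and CDC25A above it, each past 1.5-fold only in siMYBL2-1. RB1, which encodes the retinoblastoma protein and is known to be lost in 5637 cells, had 41, 65 and 51 reads (0.165, 0.252 and 0.179 RPKM).

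Of the 33 tested regulators and substrates, 4 were at least 1.5-fold lower and 4 higher in siMYBL2-1, beside 15.0% and 11.2% of all genes. In siMYBL2-2 1 was lower and 3 were higher, beside 8.63% and 4.90% of all genes. Besides the CDC25 genes, past 1.5-fold in siMYBL2-1 there were RBL2 (3.32, 1.59 and 2.54 RPKM), a relative of RB1 in the DREAM complex, and TFDP2 (2.64, 1.42 and 2.83 RPKM), a partner of E2F factors, both lower. E2F3 (58.6, 88.3 and 71.5 RPKM), E2F4 (8.61, 13.0 and 11.6 RPKM) and E2F8 (5.06, 8.90 and 2.79 RPKM) were higher there. E2F8 was past 1.5-fold lower in siMYBL2-2. MNAT1, the assembly factor of the CDK-activating kinase (22.1, 16.5 and 37.4 RPKM), SKP2, which targets p27 for degradation (6.31, 5.99 and 9.63 RPKM), and HEXIM2, an inhibitor of P-TEFb (0.853, 0.962 and 1.80 RPKM), were past 1.5-fold higher in siMYBL2-2. In the first list CDK19 (3.30, 2.15 and 2.32 RPKM), CABLES2 (3.79, 2.08 and 2.60 RPKM) and CCNDBP1 (1.62, 0.999 and 1.72 RPKM) were lower and CCNYL1 (4.45, 7.47 and 5.98 RPKM) higher past 1.5-fold in siMYBL2-1. That is 3 and 1 of its 14 tested genes, beside 15.0% and 11.2% of all genes.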

How the data were processed

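The authors' deposited values are RPKM by gene, listed with exon intervals and exonic lengths, per the file headers. The submitters' processing notes name cutadapt 1.9, HISAT2 2.0.4, StringTie 1.3.4d and hg38. Which counter, strand setting and annotation were used is not given in the sources used here. Per the labels' protocols, poly(A) RNA was sequenced with the dUTP strand removed. RPKM times length gave whole reads for 100% of the values within 0.001 reads.

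limma-trend (limma 3.58.1, R 4.3.3) was fitted on log2(RPKM + 1) for genes whose mean reached 1 RPKM, with Benjamini-Hochberg adjustment over all of them and a threshold of 0.05. Log2 changes on this scale understate low genes, and folds are plain RPKM ratios. RPKM is a share of the library's reads. On simulated reads with a noise level set in advance, limma-trend made more false calls than its adjusted p allows. That level was not fitted to these libraries, so the rate of false calls in them was not tested. Alternatives were other pseudocounts, filters, scalings, moderation, limma-voom, another fold and leaving out 1 siMYBL2 library.

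The members and gene lists were chosen with earlier results of these data known. Full statistics were given for members at least 1.5-fold from siNC in the same direction in both siMYBL2 libraries. Motifs were counted in RefSeq promoters (GRCh38.p14).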

Additional observations from a re-analysis of the deposited data

How the results depend on the processing

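Every comparison with siNC rests on 1 library whose own spread was not measured, and depth limits CCND2, CCNA1 and CDKN1C, with 24 reads or fewer in each library. limma called 1 gene of all tested, and 0 when low genes were kept, with a filter of 5 RPKM, after rescaling by median ratios or by upper quartiles, and with robust moderation, and 10 with limma-voom. Members called numbered 0 in every one of these fits. The 7 members with full statistics were chosen for a shared direction past 1.5-fold in both siMYBL2 libraries, which largely fixes their direction in advance. It was kept in 66 of 66 alternatives. In 52 of these a test was made, and 0 passed the threshold, while the 14 that leave out a siMYBL2 library are values with no test. Of the 12 members at least 1.5-fold lower in siMYBL2-1, 5 were left with a filter of 5 RPKM and 3 at a fold of 2. Of the 10 in siMYBL2-2, 6 were left on RPKM + 1, 6 with the filter of 5 RPKM and 1 at a fold of 2, and of the 3 higher there 1 was left at a fold of 2. The share of all genes was not taken at these other settings, so these counts have no background beside them.

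The median log2 change of the G1 genes was 0.164, and 0.20 after median rescaling and 0.193 to 0.237 without 1 of the siMYBL2 libraries. That of the S to M phase genes was -0.339, and -0.170 without siMYBL2-1 and -0.619 without siMYBL2-2. That of the other cyclins and kinases was -0.287, and -0.225 without siMYBL2-1 and -0.365 without siMYBL2-2. That of the transcription genes was 0.139, and 0.162 with a pseudocount of 0.1, 0.170 after median rescaling and 0.114 to 0.132 without 1 library. That of the inhibitors was -0.01, and -0.348 to 0.0211 without 1 library, and its sign was positive without siMYBL2-2 and after median rescaling (0.023). The cause of these shifts was not tested. Median rescaling moves plain log2 ratios to siNC up by 0.05 in siMYBL2-1 and by 0.02 in siMYBL2-2. No paired analysis was possible because siNC carries no replicate number.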

Other observations

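Ratios of RPKM inside 1 library do not depend on how the libraries were scaled to each other. The ratio of CCND1, a G1 cyclin, to CCNB1, a mitotic cyclin, was 0.152 in siNC, 1.41 in siMYBL2-1 and 0.331 in siMYBL2-2. CCNB1 to its kinase CDK1 stood at 1.80, 2.75 and 3.32, so CDK1 was lower relative to its cyclin in both siMYBL2 libraries. CKS2 to CKS1B stood at 2.32, 2.97 and 3.89. CCNE1 to CCNE2 stood at 0.793, 1.04 and 0.538, with siNC between the siMYBL2 libraries. The summed level of CDK4 and CDK6 relative to the summed level of the 4 INK4 inhibitors was 1.15, 1.66 and 2.04. Within these sums CDK6 made up 5.49%, 8.62% and 6.15% of the kinases, and CDKN2A 70.9%, 74.9% and 76.9% of the inhibitors. These ratios were formed after the values had been seen, each rests on 1 library, and none was tested.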
